A study of Mus musculus with 6 samples.

Results

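The C2H2 zinc finger transcription factors are described here as they stand in libraries labelled mouse U14, with and without FOXP1 overexpression. They are the genes whose transcription factor family is given as zf-C2H2 in the deposited table of changed genes, 58 rows in all, of which Ikzf1 and Ikzf3 were set aside. The remaining 56 are 56 of 1722 listed genes and the largest annotated family among the 140 listed genes that carry any transcription factor family. Of the 56, 33 have names made of Zfp and a number, 19 are factors named for a function, a phenotype or a domain, and 4 carry clone or prediction names (2010315B03Rik, 2610008E11Rik, 2810021J22Rik and Gm13212). In the counts, the last 2 kinds together are the 23 members with other names.

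U14 is a mouse cervical carcinoma line, and its polyadenylated RNA was sequenced as paired ends. The 3 control libraries are labelled wild type (WT libraries 1, 2 and 3). The other 3 are of the group with the genotype OEFOXP1 (overexpression libraries 2, 3 and 4), that is, they overexpress the forkhead transcription factor FOXP1. Library 4 was placed in that group by its column name, as no sample title carries its number. The sources used here name no vector or promoter, give no number of clones, and do not say whether the control cells carry an empty vector. Separate cultures are not stated for the libraries either, so a p-value covers just the spread between these 6 libraries, which may be technical. Foxp1 was not analysed here. The comparison asks which genes change when FOXP1 is overexpressed.

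Levels are FPKM, fragments per kilobase of a gene's length and scaled to the library's fragments. The length that the deposited values imply was 51206 bases for Zfp521, 25859 for Klf12 and 23320 for Tshz3. Their longest reading frames lie in GENCODE M21 transcripts of 6206, 5890 and 5098 bases. The FPKM of such genes is low for their reads, so levels compare between genes only within that limit. The 6 libraries held 16824351 to 20410060 fragments, and the 56 genes took 0.0178% to 0.0207% of them in wild type and 0.0337% to 0.0549% in overexpression. A gene is said to have risen or fallen where the authors' deposited table lists it so, where all q-values are under 0.05 and all folds 2 or more. Because the table holds changed genes only, every member had already been selected for a difference between the groups, and no count of members that changed is evidence about the family. Genes of the family that do not appear in it were not analysed here. In bulk RNA, fewer cells of a type and less RNA per cell cannot be told apart, and transcripts of immune and stromal cell types are present in all 6 libraries. In wild type the macrophage gene Lyz2 stood at 1304 ± 309 FPKM (SD, n = 3). The plasma cell gene Jchain stood at 181 ± 36.3 and the fibroblast gene Dcn at 82.2 ± 5.09 FPKM. Levels given here are those of the whole library and cannot be assigned to the carcinoma cells. Of 14 T cell markers, 12 are listed, all higher, and their summed level was 57.2 to 104 FPKM in wild type and 264 to 305 FPKM in overexpression, with none at 0 in any library. Of 10 epithelial markers, 3 are listed, of which the keratin gene Krt18 and Elf3 were lower in overexpression and Epcam higher, at 1.25 ± 0.0665 FPKM (SD, n = 3) in wild type and 6.01 ± 2.84 FPKM in overexpression.

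A C2H2 finger is a short loop in which a pair of cysteines and a pair of histidines hold a zinc ion, and each finger contacts a few bases of DNA. Factors with few fingers, such as the EGR, Sp, Kruppel-like, PRDM and Ikaros proteins, are known as regulators of cell identity and growth. Most Zfp-numbered genes belong to a large, fast-evolving class with long arrays of fingers, many of which carry a KRAB domain, recruit the corepressor TRIM28 and silence transposable elements. Their genes lie in clusters that arose by tandem duplication.

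Of the 56 members, 55 rose and 1, Zfp979, fell in the authors' deposited table. Genes listed as higher were 9.59% of the 15689 genes the authors tested, and 87.4% of the listed genes. The share of rises among members was 98.2%, among the 82 listed genes of the other transcription factor families 84.1%, and among the 19 homeobox genes 73.7%. The median log2 fold of the rising members in the authors' deposited table was 1.31, against 1.46 over all rising listed genes, and ran from 1.01 for Zfp629 to 3.10 for Zim1. All 56 members had wild-type and overexpression libraries that did not overlap in FPKM, as had 93.0% of all listed genes. On the log2(FPKM + 0.1) scale, the median of the single-gene differences was 1.27 over all listed genes. The libraries' own medians over the listed genes were on average 1.16 higher in overexpression than in wild type. Relative to that shift of 1.16, 31 of the 56 members lay below 0, as did 628 of all listed genes. Relative to it, 12 of the 28 genes with library values below turn negative, Egr2, Prdm1, Osr1 and Zfp984 among them.

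**Figure D1:**
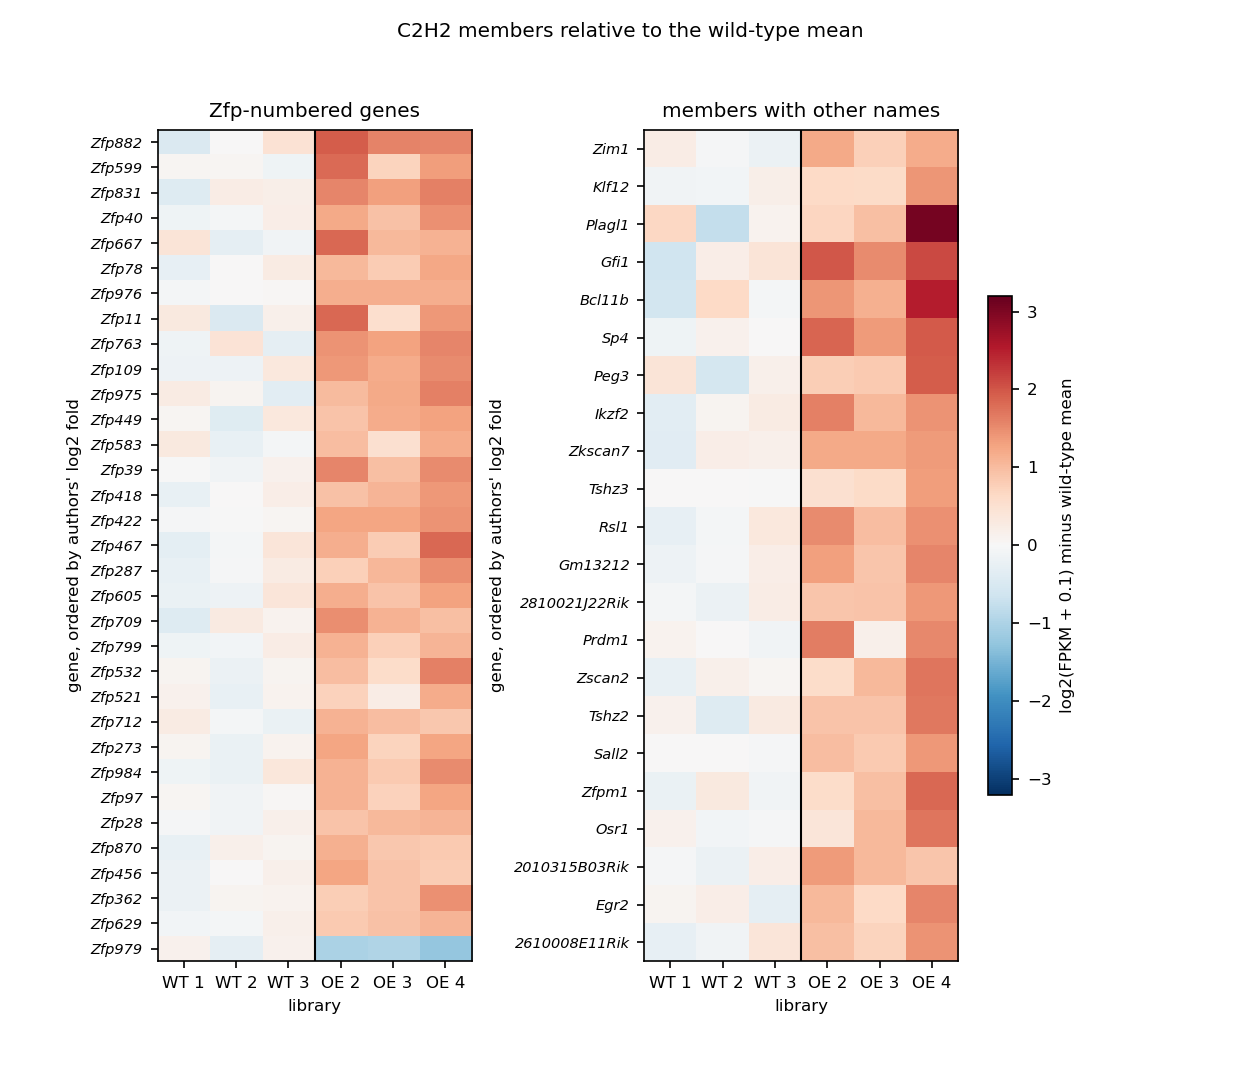
Difference of 55 members from their wild-type means, in log2(FPKM + 0.1), in 3 wild-type (WT) and 3 overexpression (OE) libraries, with genes in rows ordered by the authors' log2 fold. All overexpression values lie above 0 except those of Zfp979, and Plagl1 and Bcl11b are darkest in OE 4.

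Limma, a moderated linear model, was run on log2(FPKM + 0.1) over all 1722 listed genes, and a gene was called where its Benjamini-Hochberg adjusted p was under 0.05 and its log2 difference reached 1 either way. It called 47 of the 56 members, against 87.7% of all listed genes, and 46 of these as higher, against 79.1%. The 9 that it did not call were Zfp456, Zfp521, Zfp583, Zfp629, Zfp712, Zfp799, Zfp870, Tshz3 and Klf12, and the mean of their higher group was between 0.141 and 1.59 FPKM. On read counts rebuilt from the deposited values, limma's voom called all 56 (94.1% of all listed genes). With adjustment over all 15689 genes tested by the authors, voom called 19 members, or 33.9%, where 52.8% of all listed genes were called. Without overexpression library 4, limma on FPKM called 27 of the 56 members instead of 47, and 1314 of the 1722 listed genes instead of 1511. Limma called 1 member with a pseudocount of 1 and 1 after median centring, against 699 and 243 of all listed genes.

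Zfp-numbered genes and members with other names differed in level. Their folds had all passed the authors' limit of 2, so a likeness in fold is bounded by that selection. The median of the overexpression mean was 0.711 FPKM for Zfp-numbered genes and 1.58 FPKM for the others, and the wild-type medians were 0.277 and 0.459 FPKM. In 21 of the 33 Zfp-numbered genes the mean of the higher group stayed under 1 FPKM, as in 7 of the other 23 and in 22.5% of all listed genes. The median log2 fold of the rising genes in the authors' deposited table was 1.32 and 1.31, and 1.48 for the 19 named factors alone. Limma called 26 of the 33 Zfp-numbered genes and 21 of the 23 others, against the 87.7% of all listed genes. That contrast depended on the fit. Voom on rebuilt reads called every gene of both kinds, and 94.1% of all listed genes. Without overexpression library 4, limma called 18 of the 33 and 9 of the 23, and 1314 of the 1722 listed genes. Reads were fewer too in Zfp-numbered genes, with medians per library of 28 to 35 reads in wild type and 74 to 86 in overexpression. For the others the medians were 51 to 54 and 105 to 185.

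**Figure D2:**
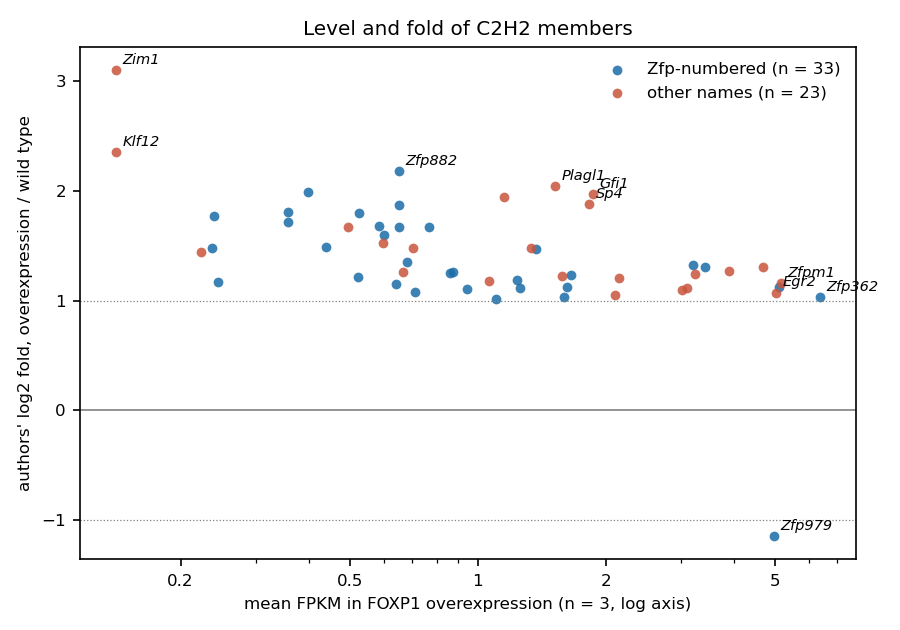
Mean FPKM in the 3 overexpression libraries (log axis) against the authors' log2 fold for the 56 members, with Zfp-numbered genes in blue, the others in red, and dotted lines at the log2 fold of 1 either way. Zfp979 is the only point below 0, and the largest folds, those of Zim1 and Klf12, are at the lowest mean FPKM.

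The members also differed in how evenly they rose over the overexpression libraries. The authors' q-value depends on the spread within groups, so the selection of the table bears on these shares too. A difference of 2-fold or more between the highest and the lowest overexpression library was found in 5 of 32 rising Zfp-numbered genes (15.6%), in 9 of the 19 named factors (47.4%), in 0 of the 4 with clone or prediction names, and in 33.6% of all rising listed genes. Library 4 was the highest of the overexpression libraries in 39 of the 55 rising members (70.9%), against 46.4% of all rising listed genes. Library 3 was the highest in 1 member, Zfp976, against 22.3% of all rising listed genes. The median difference from the wild-type mean, on the log2(FPKM + 0.1) scale, was 1.15, 0.94 and 1.32 in libraries 2, 3 and 4 for Zfp-numbered genes and 1.03, 0.95 and 1.53 for the others. These shares are descriptions over genes that share 3 libraries and were not tested.

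**Figure D3:**
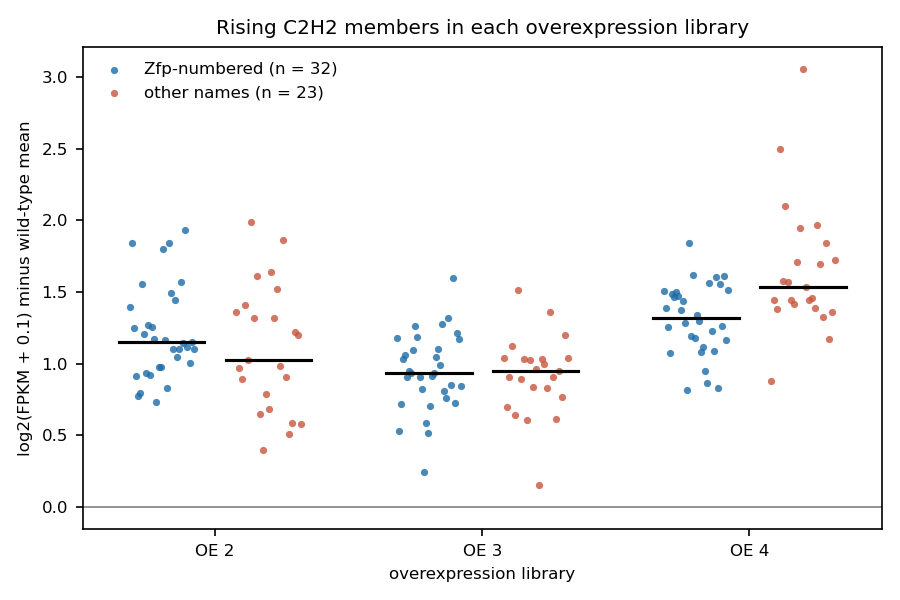
Difference of each rising member from its wild-type mean in log2(FPKM + 0.1), by overexpression library (OE), with Zfp-numbered genes in blue, the others in red and black lines at the medians. The median of the other members is 1.53 in OE 4 against 1.03 and 0.95 in OE 2 and OE 3.

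Of 22 C2H2 factors with a known role in lymphocytes, 8 are listed, all higher, where 9.59% of all tested genes are listed as higher. Members among these are Bcl11b, Egr2, Gfi1, Ikzf2, Prdm1 and Zfp831, while Zbtb20 and Zbtb32 are annotated as ZBTB. Gfi1 (Entrez 14581), a repressor of blood stem cells and T cells, read 0.242, 0.517 and 0.608 FPKM in wild-type libraries 1, 2 and 3 and 2.01, 1.42 and 2.18 FPKM in overexpression libraries 2, 3 and 4. Its lowest overexpression library stood above every wild-type one by more than the range of wild type, and the log2 difference was 1.87 ± 0.35 (SE, n = 3 against 3; limma adjusted p = 0.00242). Ikzf2 (Entrez 22779), the Ikaros family member Helios of regulatory T cells, read 0.334, 0.485 and 0.557 FPKM in wild type and 1.58, 1.03 and 1.40 FPKM in overexpression. Its log2 difference was 1.36 ± 0.30 (limma adjusted p = 0.0032). Gfi1 and Ikzf2 kept their limma calls without each library in turn, and both were lowest in library 3 among the overexpression libraries.

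Bcl11b (Entrez 58208), needed for T cell commitment, read 0.137, 0.459 and 0.243 FPKM in wild type and 0.848, 0.679 and 1.92 FPKM in overexpression. One library, number 4, held more than the other 2 overexpression libraries together. The log2 difference was 1.68 ± 0.44 (SE; limma adjusted p = 0.00583), and the call held without each library in turn. Zfp831 (Entrez 100043757) read 0.0981, 0.214 and 0.2 FPKM in wild type and 0.688, 0.561 and 0.707 FPKM in overexpression, with a log2 difference of 1.5 ± 0.29 (limma adjusted p = 0.00262). With 2 matches to the finger pattern in its 1628 residues it had the fewest fingers of any member, although its name is a Zfp number. The T cell markers summed to 264, 271 and 305 FPKM in overexpression libraries 2, 3 and 4. Their part in the rises of these factors was not tested.

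Egr2 (Entrez 13654), an early growth response factor of activated T cells and of myelinating Schwann cells, read 2.37, 2.60 and 1.81 FPKM in wild type and 4.66, 3.56 and 6.86 FPKM in overexpression. Its log2 difference was 1.08 ± 0.31 (SE; limma adjusted p = 0.00815), which came under the threshold of 1 on leaving out wild type 3 (0.94) or overexpression 4 (0.84). It is the only one of the 5 EGR and Wt1 genes that is listed. Markers of nerve and Schwann cells were listed in 2 of 7 cases, and their summed level was 0.85 to 2.12 FPKM in wild type and 3.98 to 4.70 FPKM in overexpression. Their part in the rise of Egr2 was not tested.

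Prdm1 (Entrez 12142) encodes Blimp-1, the repressor that drives the plasma cell programme. It read 1.40, 1.32 and 1.19 FPKM in wild type and 4.28, 1.46 and 3.96 FPKM in overexpression. Libraries 2 and 4 were high, while library 3 stood just above the highest wild-type library. Of 8 plasma cell markers, 7 are listed, all higher, and their summed level was 263 to 379 FPKM in wild type, 4328 FPKM in overexpression library 2, 378 FPKM in library 3 and 1667 FPKM in library 4. Their part in the rise of Prdm1 was not tested. The log2 difference of Prdm1 was 1.11 ± 0.40 (SE; limma adjusted p = 0.0221). The call was lost without wild-type library 1 (log2 difference 1.16, adjusted p = 0.0559), without wild-type library 3 (1.05, adjusted p = 0.0637), without overexpression library 2 (0.84, adjusted p = 0.0806) and without overexpression library 4 (0.90, adjusted p = 0.0844) in limma.

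The promoter of Prdm1 is shown because it is 1 of 2 member promoters that hold a forkhead core, the letters TGTTTAC or TATTTAC on either strand, the kind of site FOXP1 is known to bind. The windows searched ran from 250 bases before to 50 bases after a RefSeq start, and the 250 bases before it are printed, 5′ to 3′ on the gene's strand with the matches in capitals, from RefSeq's table on GRCm38.p6. The Prdm1 window printed is chr10:44458749-44458998, minus strand, and that of Zscan2, the other gene with a match, is chr7:80861858-80862107, plus strand.
Prdm1: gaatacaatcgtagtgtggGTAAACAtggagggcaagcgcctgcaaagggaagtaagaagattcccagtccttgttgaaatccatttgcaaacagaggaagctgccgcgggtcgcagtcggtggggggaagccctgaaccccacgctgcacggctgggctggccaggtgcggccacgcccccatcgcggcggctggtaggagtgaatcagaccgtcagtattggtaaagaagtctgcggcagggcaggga
Zscan2: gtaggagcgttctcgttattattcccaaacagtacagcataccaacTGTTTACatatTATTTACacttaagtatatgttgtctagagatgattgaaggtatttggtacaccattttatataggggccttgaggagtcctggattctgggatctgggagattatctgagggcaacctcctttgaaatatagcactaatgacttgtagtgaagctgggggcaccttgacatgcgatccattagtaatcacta
A match was found in 2 of 53 promoters of the 44 members with an entry (3.77%), and in 0 of 27 promoters of Zfp-numbered genes. The share was 5.35% over the promoters of all listed genes and 6.54% over all 32851 promoters. Zscan2 (Entrez 22691), a SCAN domain factor, stood at 0.639 ± 0.101 FPKM (SD, n = 3) in wild type and 1.58 ± 0.678 FPKM in overexpression.

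**Figure D4:**
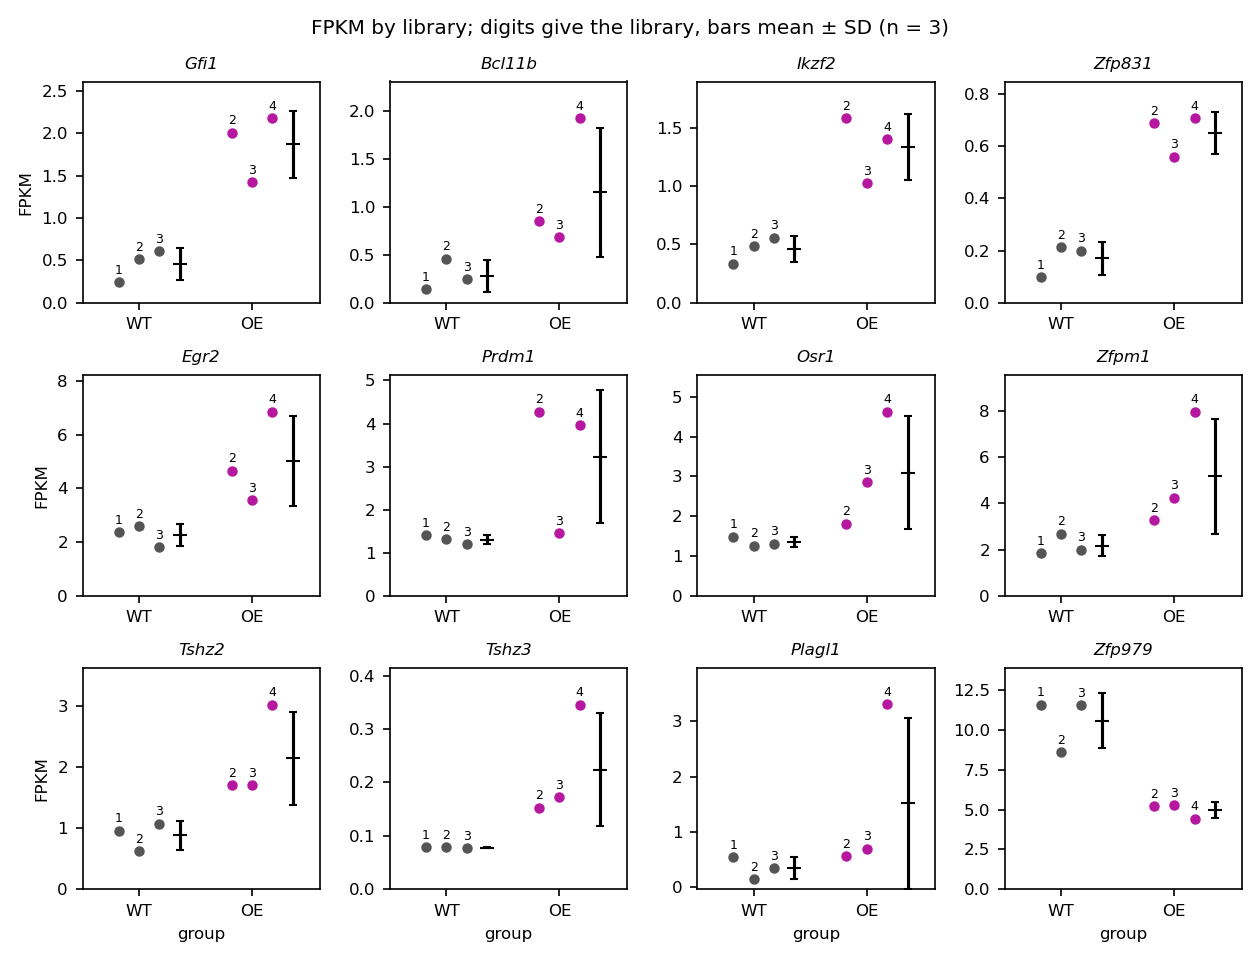
FPKM of 12 members by library, with the wild-type group (WT) in grey, overexpression (OE) in purple, digits naming the library and bars giving the mean and SD of 3 libraries. OE 4 is highest for Bcl11b, Egr2, Osr1, Zfpm1, Tshz2, Tshz3 and Plagl1, OE 3 of Prdm1 lies near wild type, and Zfp979 is lower in every overexpression library.

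Of 28 C2H2 factors of patterning and mesenchyme, 6 are listed, all higher, against 9.59% of all tested genes. Of the 6, Osr1, Plagl1, Tshz2, Tshz3 and Zfp521 are members and Zfhx4 is annotated as a homeobox gene. Osr1 (Entrez 23967), an odd-skipped factor of embryonic and connective tissue mesenchyme, read 1.48, 1.26 and 1.31 FPKM in wild type and 1.81, 2.85 and 4.63 FPKM in overexpression libraries 2, 3 and 4. Zfpm1 (Entrez 22761), the GATA cofactor FOG-1 of red cell and platelet precursors, had the highest overexpression mean of the members with other names and read 1.85, 2.69 and 1.99 FPKM in wild type and 3.28, 4.25 and 7.98 FPKM in overexpression. Both were lowest in library 2 and highest in library 4. Tshz2 (Entrez 228911), a teashirt factor, read 0.956, 0.621 and 1.07 FPKM in wild type and 1.71, 1.71 and 3.02 FPKM in overexpression. Tshz3 (Entrez 243931), a teashirt factor of ureter smooth muscle, read 0.0781, 0.0781 and 0.0763 FPKM in wild type and 0.153, 0.172 and 0.346 FPKM in overexpression. Each of these 4 genes had its library 4 well above the other overexpression libraries. The listed fibroblast markers, 4 of 10 and all higher, summed to 130 to 158 FPKM in wild type and to 390, 470 and 626 FPKM in libraries 2, 3 and 4. Their part in these rises was not tested.

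Without overexpression library 4, limma no longer called Osr1 (log2 difference 0.71 instead of 1.04), Zfpm1 (0.77 instead of 1.13) or Tshz2 (0.91 instead of 1.17). Without wild-type library 2, Osr1 came just under the threshold of 1, as did Tshz2 (0.96). Tshz3 was not called on all libraries, at 0.82 ± 0.29 (SE; adjusted p = 0.0225), and neither was Zfp521, a factor of immature mesenchymal and blood cells, at 0.72 ± 0.31 (adjusted p = 0.0463). The log2(FPKM + 0.1) scale understates changes at such low FPKM, and the authors' log2 folds were 1.45 and 1.17. On rebuilt reads voom called Tshz3 at 1.36 (adjusted p = 0.00749) and Zfp521 at 1.11 (adjusted p = 0.0204). With adjustment over all genes tested, voom called neither. Zfp521 (Entrez 225207) read 0.120, 0.0701 and 0.118 FPKM in wild type and 0.236, 0.139 and 0.360 FPKM in overexpression. Its library 3 was close to wild type.

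The authors listed 11.0% of all tested genes in either direction and 9.59% as higher. None of the 11 Gli, Glis and Zic genes is listed, and of the 15 genes of the Hedgehog pathway around Gli 6 are, all higher. Gas1, a Hedgehog co-receptor, stood at 1.82 ± 0.436 FPKM (SD, n = 3) in wild type and 5.98 ± 2.88 FPKM in overexpression, and the signal transducer Smo at 1.52 ± 0.362 and 4.2 ± 1.26 FPKM. No gene of the 7 Snail, Scratch and Zeb factors or of the 8 in the list of CTCF, Yy1, Rest and Maz is listed either. Of 43 BTB zinc finger genes, which the annotation keeps apart, 3 rose and 1, Zbtb10, fell.

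Plagl1 (Entrez 22634), an imprinted gene that encodes the growth-restraining factor Zac1, read 0.542, 0.140 and 0.343 FPKM in wild type and 0.557, 0.697 and 3.30 FPKM in overexpression. Library 4 held more than the other overexpression libraries together, and library 2 stood only just above the highest wild-type library. Its log2 difference was 1.57 ± 0.61 (SE; limma adjusted p = 0.0319), and 0.82 (adjusted p = 0.101) without library 4. The limma call was lost as well without wild-type library 2 (1.18, adjusted p = 0.105) and without wild-type library 3 (1.63, adjusted p = 0.0656). Peg3 (Entrez 18616), a paternally expressed imprinted gene, stood at 0.195 ± 0.0940 FPKM (SD, n = 3) in wild type and 0.597 ± 0.344 FPKM in overexpression, again highest in library 4.

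Zim1 (Entrez 22776), from the same imprinted domain as Peg3, had the largest log2 fold of all members in the authors' deposited table, 3.10, on very few reads. It had 3, 1 and 0 reads in wild-type libraries 1, 2 and 3 and 13, 9 and 13 reads in overexpression libraries 2, 3 and 4. Over the groups, 35 reads against 4 give a ratio of 8.80 per fragment, with a 95% exact interval of 3.15 to 34.1 that covers counting error only. Limma called it at 1.06 ± 0.27 (SE; adjusted p = 0.00519), and the call was lost on leaving out wild type 3 (0.96), overexpression 2 (0.97) or overexpression 4 (0.998). Klf12 (Entrez 16597), a Kruppel-like repressor and the only one of 17 Kruppel-like genes that is listed, read 0.0166, 0.0186 and 0.0430 FPKM in wild type and 0.0965, 0.0909 and 0.235 FPKM in overexpression. It rested on 8, 9 and 20 reads in wild type and on 42, 48 and 108 in overexpression. The authors' deposited table gives it a log2 fold of 2.35, and limma on log2(FPKM + 0.1), which understates the change of such low levels, gave 0.89 ± 0.30 (SE; adjusted p = 0.0171) and no call. Without overexpression library 2 or 3 it was called, at 1.01 and 1.03.

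Sp4 (Entrez 20688), which binds GC boxes and is known from neurons, was the only listed gene of 9 Sp factors and had the smallest authors' q of all members. It read 0.416, 0.528 and 0.474 FPKM in wild type and 1.98, 1.37 and 2.14 FPKM in overexpression. Even the lowest overexpression library was more than 2-fold above the highest wild-type one. The log2 difference was 1.73 ± 0.28 (SE; limma adjusted p = 0.0022), and the call held without each library in turn. Other named factors rose at low levels. Sall2, a spalt factor, stood at 0.447 ± 0.00835 FPKM (SD, n = 3) in wild type and 1.06 ± 0.240 FPKM in overexpression, and the KRAB and SCAN domain factor Zkscan7 at 0.242 ± 0.0709 and 0.704 ± 0.0515 FPKM.

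Zfp979 (Entrez 112422) was the one member that fell and the most abundant of all in wild type. It read 11.6, 8.62 and 11.6 FPKM in wild-type libraries and 5.20, 5.30 and 4.42 FPKM in overexpression libraries 2, 3 and 4. The overexpression libraries lay close together and all below wild type. Genes listed as lower were 1.38% of the genes the authors tested. The log2 difference was -1.07 ± 0.24 (SE; limma adjusted p = 0.00356). It moved just inside the fold threshold when a library was left out, be it wild type 1 (-0.997), wild type 3 (-0.997) or overexpression 4 (-0.987), with adjusted p-values of 0.0143, 0.0132 and 0.0118 in limma. In voom it was called on all libraries and without each in turn.

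Close relatives of Zfp979 on the same chromosome went the other way. Zfp984 (Entrez 100041677), which RefSeq places within 10 protein-coding genes of Zfp979, read 1.98, 1.88 and 2.84 FPKM in wild type and 4.83, 4.01 and 6.47 FPKM in overexpression. Gm13212 (Entrez 433801) lies elsewhere on chromosome 4, beside 10 genes with names that start with Zfp and a number. It read 1.35, 1.5 and 1.78 FPKM in wild type and 3.97, 2.94 and 4.75 FPKM in overexpression. Both groups were clear of each other in both genes, with log2 differences of 1.15 ± 0.29 and 1.26 ± 0.28 (SE; limma adjusted p = 0.00501 and 0.00329). The call of Zfp984 was lost without overexpression library 4 (0.97). The 250 bases before their starts are printed to show how alike these genes are, with the GC box letters GGGCGG in capitals, 5′ to 3′ on the gene's strand, from RefSeq on GRCm38.p6. The windows are chr4:147642509-147642758, minus strand, for Zfp979, chr4:147809789-147810038, minus strand, for Zfp984 and chr4:145584950-145585199, plus strand, for Gm13212.
Zfp979: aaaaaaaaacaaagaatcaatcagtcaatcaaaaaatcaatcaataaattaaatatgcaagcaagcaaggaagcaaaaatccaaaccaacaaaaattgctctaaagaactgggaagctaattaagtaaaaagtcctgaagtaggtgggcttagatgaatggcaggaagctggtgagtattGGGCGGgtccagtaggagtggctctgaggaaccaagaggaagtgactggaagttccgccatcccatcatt
Zfp984: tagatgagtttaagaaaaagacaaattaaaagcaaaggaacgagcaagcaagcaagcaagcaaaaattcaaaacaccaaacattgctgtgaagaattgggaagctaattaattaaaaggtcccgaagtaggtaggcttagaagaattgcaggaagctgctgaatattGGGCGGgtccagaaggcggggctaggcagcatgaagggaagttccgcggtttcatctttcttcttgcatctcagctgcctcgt
Gm13212: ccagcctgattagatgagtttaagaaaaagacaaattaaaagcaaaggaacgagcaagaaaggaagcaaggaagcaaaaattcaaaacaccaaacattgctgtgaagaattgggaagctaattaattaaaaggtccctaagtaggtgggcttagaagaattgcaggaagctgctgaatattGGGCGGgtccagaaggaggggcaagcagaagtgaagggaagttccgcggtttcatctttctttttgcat
Zfp984 and Gm13212 were identical at 96.6% of 235 aligned bases, Zfp979 and Zfp984 at 81.1% of 222, and Zfp979 and Gm13212 at 83.5% of 218. All 3 hold the GC box, on the gene's own strand. On either strand it was found in 45.3% of member promoters, 45.4% of the promoters of all listed genes and 35.7% of all promoters. Their transcripts share sequence with other genes too. In GENCODE M21, 39.9% of the 75-base stretches of Zfp984 and 41.8% of those of Gm13212 also occur in transcripts of other genes. For Zfp979 the share was 19.8%. Zfp984 and Gm13212 shared most with each other, and Zfp979 shared most with Zfp978. How the authors counted reads that map to several genes is not given in the sources used here, so the levels of these 3 genes are uncertain to that extent.

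Among the other Zfp-numbered genes, the highest overexpression mean was that of Zfp362 (Entrez 230761), at 2.58, 3.13 and 3.19 FPKM in wild type and 5.22, 5.62 and 8.33 FPKM in overexpression. Its log2 difference of 1.06 ± 0.27 (SE; limma adjusted p = 0.00541) came under 1 on leaving out wild type 1 (0.96) or overexpression 4 (0.85). Zfp467 (Entrez 68910), known from marrow stroma, where it favours fat over bone cells, read 1.02, 1.21 and 1.70 FPKM in wild type and 3.01, 2.35 and 4.87 FPKM in overexpression. Both genes were highest in library 4, and limma's call of Zfp467 was lost without that library (0.996). Zfp422 (Entrez 67255) was nearly level within each group, with 1.19, 1.2 and 1.27 FPKM in wild type and 3.08, 3.07 and 3.47 FPKM in overexpression. Its log2 difference was 1.32 ± 0.24 (SE; limma adjusted p = 0.00239), and it kept the call without each library in turn.

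Rsl1 (Entrez 380855) encodes a KRAB zinc finger repressor of sex-limited liver genes, and it lies within 10 protein-coding genes of the members Zfp456 and Zfp712. It read 1.47, 1.70 and 2.28 FPKM in wild type and 5.32, 3.66 and 5.10 FPKM in overexpression, a log2 difference of 1.33 ± 0.28 (SE; limma adjusted p = 0.00299). The clone-named 2010315B03Rik (Entrez 630836) read 1.32, 1.18 and 1.57 FPKM in wild type and 3.62, 2.87 and 2.57 FPKM in overexpression, one of 6 rising members that were lowest in library 4. Its limma call was lost without overexpression library 2 (0.96). Of the neighbours of Rsl1, neither of which limma called, Zfp456 stood at 0.746 ± 0.1 FPKM (SD, n = 3) in wild type and 1.59 ± 0.281 FPKM in overexpression, and Zfp712 at 0.277 ± 0.0660 and 0.642 ± 0.0608 FPKM.

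The largest log2 folds among Zfp-numbered genes in the authors' deposited table were 2.18 for Zfp882, 1.99 for Zfp599, 1.87 for Zfp831, 1.81 for Zfp40, 1.80 for Zfp667 and 1.77 for Zfp78. Zfp882 (Entrez 382019) read 0.0664, 0.133 and 0.216 FPKM in wild type and 0.778, 0.598 and 0.578 FPKM in overexpression. Zfp599 (Entrez 235048) read 0.105, 0.105 and 0.0777 FPKM in wild type and 0.582, 0.219 and 0.394 FPKM in overexpression. In both the overexpression libraries were all above wild type, with library 2 the highest. Zfp40 (Entrez 22700) read 0.0787, 0.0874 and 0.127 FPKM in wild type and 0.354, 0.276 and 0.446 FPKM in overexpression. Zfp667 (Entrez 384763) read 0.221, 0.0947 and 0.120 FPKM in wild type and 0.759, 0.395 and 0.421 FPKM in overexpression. Zfp78 (Entrez 330463) read 0.0379, 0.0662 and 0.0981 FPKM in wild type, from 4, 7 and 10 reads, and 0.241, 0.190 and 0.289 FPKM in overexpression, from 23, 22 and 29. Limma called all 6, and lost 1 of them, Zfp78, on leaving out wild type 1 (0.90) or overexpression 4 (0.93).

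The remaining Zfp-numbered genes rose with log2 folds of 1.01 to 1.72 in the authors' deposited table. Those above 1.4 were Zfp976, Zfp11, Zfp763, Zfp109, Zfp975, Zfp449, Zfp583 and Zfp39, and those below were Zfp418, Zfp287, Zfp605, Zfp709, Zfp799, Zfp532, Zfp712, Zfp273, Zfp97, Zfp28, Zfp870, Zfp456 and Zfp629. Zfp976 was the most even, at 0.104 ± 0.00754 FPKM (SD, n = 3) in wild type and 0.358 ± 0.00302 FPKM in overexpression. At the other end, Zfp11 stood at 0.176 ± 0.0713 and 0.586 ± 0.289 FPKM. Of the 2 other clone-named members, 2610008E11Rik stood at 0.966 ± 0.261 and 2.10 ± 0.587 FPKM and 2810021J22Rik at 0.265 ± 0.0575 and 0.667 ± 0.155 FPKM. Among the members given by means or names only, limma lost its calls of Zfp28, Zfp97, Zfp273, Zfp287, Zfp532, 2610008E11Rik, 2810021J22Rik, Sall2, Peg3 and Zscan2 without overexpression library 4. Leaving out overexpression library 2 cost the calls of Zfp11, Zfp97 and Zfp273, and leaving out library 3 that of Zfp28. On leaving out wild type 1, Zfp28, Zfp287, Zfp709, 2610008E11Rik and Zscan2 were no longer called. On leaving out wild type 2, the same held for Zfp28, Zfp97, Zfp273, Zfp449, Zfp532, 2610008E11Rik, 2810021J22Rik and Peg3. Outside the annotation, 5 more listed genes have Zfp-number names, Zfp503, Zfp518a, Zfp518b, Zfp704 and Zfp950, and all rose, with log2 folds of 1.12 to 1.76 in the authors' deposited table.

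The 2 kinds of member also differed in sequence. On the longest reading frame of GENCODE M21 transcripts, Zfp-numbered genes had a median of 13 matches to the C2H2 finger pattern, with 10 or more in 28 of 33, and members with other names a median of 7, with 10 or more in 9 of 23. The pattern asks for cysteines 2 to 4 residues apart, 12 residues on to the first histidine, and histidines 3 to 5 residues apart. Zfp521 had the most matches, 27, while Egr2, Sp4, Klf12, Osr1 and the Zfp-numbered Zfp979 had 3 each. Of the 56 members, 26 are filed under herpes simplex virus 1 infection in the table's pathway column, a KEGG map that holds KRAB zinc finger genes. They are 21 Zfp-numbered genes, Rsl1, Zim1, Gm13212, 2610008E11Rik and 2810021J22Rik, and they are 26 of the 56 listed genes filed there.

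The genes also clustered in the genome. With RefSeq's gene order, 27 of 33 Zfp-numbered members (81.8%) had another Zfp-numbered gene within 10 protein-coding genes, as had 11 of the 19 named factors (57.9%) and 14.8% of the other listed genes. For members, neighbours with letters after the Zfp number were counted too. For the other listed genes they were not, so the shares are not strictly comparable. Another member lay within that distance for 17 of the 33 Zfp-numbered genes and 3 of the 19 named factors. On chromosome 7, Zfp28, Zfp78, Zfp583 and Zfp667 lay together, and Zim1 was near Peg3, Zfp418 and Zfp28. All 7 of these genes rose, as did 55 of the 56 members and 87.4% of all listed genes. On chromosome 17, Zfp763, Zfp799 and Zfp870 lay together, and elsewhere the neighbours were Zfp709 and Zfp882, Zfp975 and Zfp976, Zfp39 and 2810021J22Rik, and Zfp979 and Zfp984. Zfp979 was the only member that fell, so no pair or group but that of Zfp979 and Zfp984 could move in opposite directions.

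More than 10% of the 75-base stretches were shared with other genes in 9 members: Zfp97 (74.0%), Gm13212, Zfp984, Zfp975 (24.2%), Zfp979, Rsl1 (14.5%), Zfp976 (14%), Zfp273 (12.8%) and Zfp456 (11.4%). The levels of these 9 genes are uncertain where shared reads could be split or dropped. In 37 members no stretch was shared.

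The known partners of these factors are mostly absent from the table. None of the 13 genes of the KRAB silencing complex around Trim28 is listed, and of 31 genes of the NuRD, CoREST, CtBP, Sin3, NCoR and Polycomb corepressors only Rcor2, a CoREST subunit, is. Rcor2 fell, from 12.7, 12.1 and 12 FPKM in wild type to 4.47, 6.12 and 6.71 FPKM in overexpression. The share of all tested genes that the authors listed in either direction was 11.0%.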

How the data were processed

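The data are the authors' deposited table of 1722 changed genes in 3 wild-type and 3 FOXP1-overexpression libraries. The authors used HISAT2, Trimmomatic and DESeq to make the deposited values, per the submitters' processing notes. These give no version and name hg19, a human build, for mouse genes. No source used here names the counter, a strand setting or an annotation. Per the file headers, the authors deposited 1 expression value per library, settled here as FPKM from the values themselves, and group means of normalised counts, used as a signal to rebuild reads. They also deposited a fold ratio, a log2 fold, a p-value and a q-value. With the group means, the deposited FPKM gave whole reads for 100% of 10332 values (tolerance 0.01). The ratio of the authors' q-value to p-value at the smallest p gave 15689 genes tested. Library 4 matched no sample title and counts as a replicate of its group.

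Limma 3.58.1 (R 4.3.3) was run on log2(FPKM + 0.1) with a variance trend, 3 libraries against 3, over all 1722 genes. Since these had passed the authors' thresholds, adjusted p-values describe the spread between libraries and are not a search for changed genes. Alternatives were a pseudocount of 1, a filter at 1 FPKM, no trend, median centring, a replicate block, voom on rebuilt reads, and leaving out each library. Voom with each library left out, and with p adjusted over all 15689 genes (unlisted ones taken as not called), was chosen after seeing the data. The fits were tested on simulated data.

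Values in every library are given for 28 members: the fall, the 12 highest means of the higher group, the 6 largest folds of each kind and the 12 on lineage lists. Other genes were chosen after their values were seen. Members and lists were chosen with earlier results of these data known. Cell type marker lists for B cells, macrophages, endothelium and muscle were also looked up: 9 of 10, 3 of 12, 1 of 9 and 0 of 7 are listed, each higher. Of the 10 myeloid and 10 epithelial C2H2 factors, 2 and 1 are listed, higher. Protein sequences were not used, and 1 member, included in the counts, is not reported here on its own.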

Additional observations from a re-analysis of the deposited data

How the results depend on the processing

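In every fit but the median-centred one, 1 of the members fitted lay below 0. After median centring, 31 of the 56 did. That setting brought the count of called members from 47 to 1 (Zfp-numbered 1, other names 0, listed genes 243 instead of 1511), and the median log2 difference from 1.13 to -0.0281 in Zfp-numbered members and from 1.13 to -0.0328 in the others. Among the 28 genes with library values, 12 turned, to -0.0669 for 2010315B03Rik, -0.0775 for Egr2, -0.27 for Klf12, -0.12 for Osr1, -0.0508 for Prdm1, -0.34 for Tshz3, -0.104 for Zfp362, -0.44 for Zfp521, -0.13 for Zfp78, -0.0055 for Zfp984, -0.0328 for Zfpm1 and -0.103 for Zim1. In a table made up mostly of rises this follows from the construction. A pseudocount of 1 left 1 called member (0 Zfp-numbered, 1 other; 699 listed genes) and medians of 0.47 and 0.71, with 54 members at an unadjusted p under 0.05. The filter at 1 FPKM kept 28 members, of which 26 were called (10 Zfp-numbered), so fewer genes were tested. Of the 1334 listed genes it kept, 1240 were called. Voom adjusted over all genes tested called 19 members (10 and 9) and 910 listed genes.

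Leaving out 1 library gave 27 to 50 called members, 18 to 28 Zfp-numbered and 9 to 22 others in limma, the lowest without overexpression library 4. In voom the same gave 41 to 56, 26 to 33 and 15 to 23, and medians of 1.2 to 1.41 for Zfp-numbered members and 1.13 to 1.49 for the others, with 1.38 and 1.49 without overexpression library 3. Limma's medians were 1.04 to 1.22 and 0.91 to 1.3. Listed genes called ran from 1231 to 1511 in limma, with 1314 without overexpression library 4, and from 1184 to 1585 in voom. The replicate block on the library numbers called 22 of the 56 members (13 and 9) and 1015 of the 1722 listed genes. Same-numbered libraries had deviations that correlated at 0.0248 and 0.0819, with only 2 such pairs, so the numbers were not taken to pair libraries. Leaving out overexpression library 4 moved the members' count by over 1.5 times, and no other single library did so in limma. Depth limits members with few reads, such as Zim1.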
